A study of Oryza sativa with 10 samples.

Results

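The comparison described here set rice seedlings sprayed with IAA directly against rice seedlings sprayed with ABA, to ask which transcripts separated the responses to these hormones. Its members were 4 of the 10 RNA-seq libraries of the series, IAA replicates 1 and 2 and ABA replicates 1 and 2, chosen by their labels. Seedlings of YD6, an indica cultivar of rice, were germinated for 3 d in the dark and moved to light. The IAA and ABA seedlings were sprayed near the end of 24 h of light with 100 μM of the hormone dissolved in 1% DMSO and were collected 30 min after the spray, so both groups shared solvent, dose and time. The remaining libraries came from seedlings with no hormone at 0 h (dark), 8 h and 24 h of light, with 2 replicates each. In the methods, 1% DMSO without hormone was sprayed too, but it is not given in the sources used here if the 24 h seedlings were those. Seedlings were collected and no single tissue is named, so a change in the amount of a tissue and a change in RNA per cell cannot be told apart.

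Auxin, of which IAA is the main natural form, binds F-box receptors together with Aux/IAA repressors. The repressors are then degraded, and auxin response factors become free to act on genes that respond within minutes, such as the Aux/IAA, GH3 and SAUR families. ABA binds PYR/PYL receptors, which hold PP2C phosphatases inactive and so release SnRK2 kinases that act on bZIP transcription factors and ion channels. ABA is best known for stomatal closure, drought responses and seed dormancy, and auxin for cell elongation and patterning. In young seedlings both hormones affect growth in the light.

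The values were FPKM, which counts fragments per gene after correction for gene length and library total. This unit is the one the methods name, but it is not certain, since an axis of the study labels equal values for 1 gene as TPM. The table held 2282 complete genes of chromosome 1 that ended at or before position 21262392 (MSU7.0), and genes elsewhere are not analysed here. Genes are given by the IDs of the files. These IDs were not paired with names, 0 of them matched the reference table at hand, and only OsbZIP1 and GLK2 are named, from the study's text and from an ID printed in its artwork. For the same reason the auxin and ABA gene lists could not be applied and the seedling label could not be checked against tissue markers. Sequencing depth is unknown. Replicates lay close, with a median absolute difference on the log2(FPKM + 1) scale of 0.087 between the IAA libraries, 0.081 between the ABA libraries and 0.127 between the 24 h libraries.

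Seedlings sprayed with IAA and seedlings sprayed with ABA differed in 63 of the 1092 tested genes, which is 5.77%. The tested genes averaged 1 FPKM or more over the 10 libraries. Of these, 53 genes (4.85%) were higher with IAA and 10 genes (0.916%) were lower. A gene was called when the change in log2(FPKM + 1) was 2-fold or more and its adjusted p-value (Benjamini-Hochberg, limma fitted over all 10 libraries) was below 0.01. Both libraries of one hormone lay beyond both of the other in all 63 called genes, which the fold limit itself fixes here, since 0 genes were 2-fold or more apart between the replicates of either hormone. The change of the 53 genes had a median of 1.23 on the log2 scale and ran from 1.0 to 2.50, and that of the 10 genes had a median of -1.31 and ran from -2.13 to -1.02. Without the fold limit, 461 genes passed the adjusted p-value.

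The balance of higher and lower calls moved with the scaling between libraries. Over all 1092 genes the median change between IAA and ABA was 0.214, and 816 genes had a higher fitted level with IAA against 276 with a lower one. The summed FPKM of the table was 29881 and 29481 in the IAA libraries, against 26229 and 26452 in the ABA libraries. After median-of-ratios scaling, which sets the typical gene to no change, the median was -0.033, and 27 genes (2.47%) were higher and 17 genes (1.56%) lower with IAA. The share of called genes that were higher was thus 84.1% as deposited and 61.4% after scaling. All 10 lower genes were called under both scalings, as were 27 of the 53 higher genes, while the other 26 were called only as deposited. Taken relative to the median of 0.214, the change of 27 of the 53 higher genes still reached 2-fold.

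**Figure D1:**
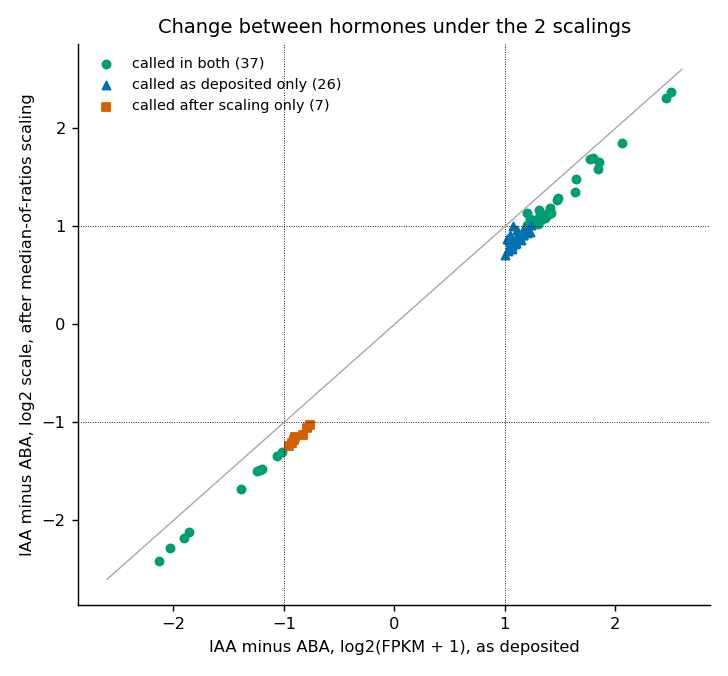
Change between IAA and ABA in log2(FPKM + 1) as deposited (horizontal axis) against the same change after median-of-ratios scaling (vertical axis), for the 63 called genes and the 7 genes called only after scaling. Points lie below the line of equality, dotted lines mark a 2-fold change, and 37 genes were called under both scalings.

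The gene with the largest change was LOC_Os01g37000 (chromosome 1, 20640981 to 20643886, plus strand). It had 8.14 and 7.33 FPKM in the IAA libraries, against 0.688 and 0.402 FPKM in the ABA libraries. The 24 h libraries lay between the hormones, with 2.96 and 3.12 FPKM. No group overlapped another. Its log2 change between IAA and ABA was 2.50 (SE 0.109, adjusted p = 1.55e-08, limma), and it was the only called gene that passed the limits against 24 h with both hormones in opposite directions, by 1.11 with IAA and -1.39 with ABA. After scaling, the IAA change was 0.97 and no longer reached 2-fold, while the ABA change was -1.40.

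LOC_Os01g03680 (1515837 to 1516832, plus strand) had 8.86 and 8.33 FPKM with IAA, against 0.515 and 1.0 FPKM with ABA. At 24 h it had 1.84 and 1.07 FPKM, so of these libraries those with IAA stood alone at a high level. Its change between the hormones was 2.46 (SE 0.152, adjusted p = 2.16e-07, limma).

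LOC_Os01g09220 (4646427 to 4648260, plus strand) had 10.4 and 10.7 FPKM with IAA, against 1.58 and 1.97 FPKM with ABA. The 24 h libraries had 0.836 and 1.15 FPKM, below both hormones. The change was 2.06 between IAA and ABA (SE 0.122, adjusted p = 2.16e-07) and 2.53 between IAA and 24 h, the largest of any called gene against 24 h. The change with ABA against 24 h was 0.47 and was not called (adjusted p = 1.07e-02, limma).

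LOC_Os01g03130 (1217006 to 1218122, minus strand) had 8.03 and 8.12 FPKM in the IAA libraries and 1.69 and 1.34 FPKM in the ABA libraries, with 1.78 and 1.25 FPKM at 24 h. The ABA and 24 h libraries overlapped and both IAA libraries lay above them, with a change between the hormones of 1.85 (SE 0.122, adjusted p = 2.97e-07, limma). LOC_Os01g16140, a short gene of 252 bp, had 27.5 and 23.9 FPKM with IAA and 7.05 and 5.90 FPKM with ABA, and its 24 h libraries were apart, at 10.4 and 3.95 FPKM. Its change was 1.84 with the larger error of 0.262.

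Low levels marked a further pair. LOC_Os01g14630 had 3.55 and 3.32 FPKM with IAA, against 0.297 and 0.250 FPKM with ABA. LOC_Os01g13600 had 3.01 and 3.0 FPKM with IAA, against 0.273 and 0.0808 FPKM with ABA. The ratio of their means was 12.6 and 17.0, while the changes on the log2(FPKM + 1) scale were 1.80 and 1.77, because the added 1 FPKM dampens changes of genes at such levels. Neither gene had overlapping groups.

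The highest levels among the 12 genes with the largest rises belonged to LOC_Os01g28500 and LOC_Os01g32460. LOC_Os01g28500 had 58.4 and 57.9 FPKM with IAA, against 19.2 and 23.1 FPKM with ABA, and 13.3 and 15.7 FPKM at 24 h. LOC_Os01g32460 had 49.7 and 48.1 FPKM with IAA, against 15.6 and 14.8 FPKM with ABA, and 18.2 and 10.6 FPKM at 24 h. In both genes the IAA libraries lay above the ABA and 24 h libraries, which overlapped in LOC_Os01g32460 while ABA lay above 24 h in LOC_Os01g28500, with a change between the hormones of 1.42 (SE 0.090) and 1.63 (SE 0.162). LOC_Os01g01660 and LOC_Os01g04800 changed by 1.64 and 1.48 at lower levels, with a mean of 4.59 and 6.04 FPKM with IAA and 0.800 and 1.52 FPKM with ABA.

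LOC_Os01g18450 (10370062 to 10370403, minus strand) separated the hormones through ABA. It had 7.07 and 6.01 FPKM with IAA, against 1.78 and 1.64 FPKM with ABA, and 5.29 and 4.21 FPKM at 24 h. The ABA libraries were the low ones, with a change of -1.08 against 24 h (adjusted p = 7.56e-05, limma), and the change with IAA against 24 h was 0.39 and was not called. LOC_Os01g11280, singled out after its values were seen, had the same pattern at a low level, with 1.54 and 1.52 FPKM with IAA, 0.0792 and 0.125 FPKM with ABA and 1.97 and 1.98 FPKM at 24 h.

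**Figure D2:**
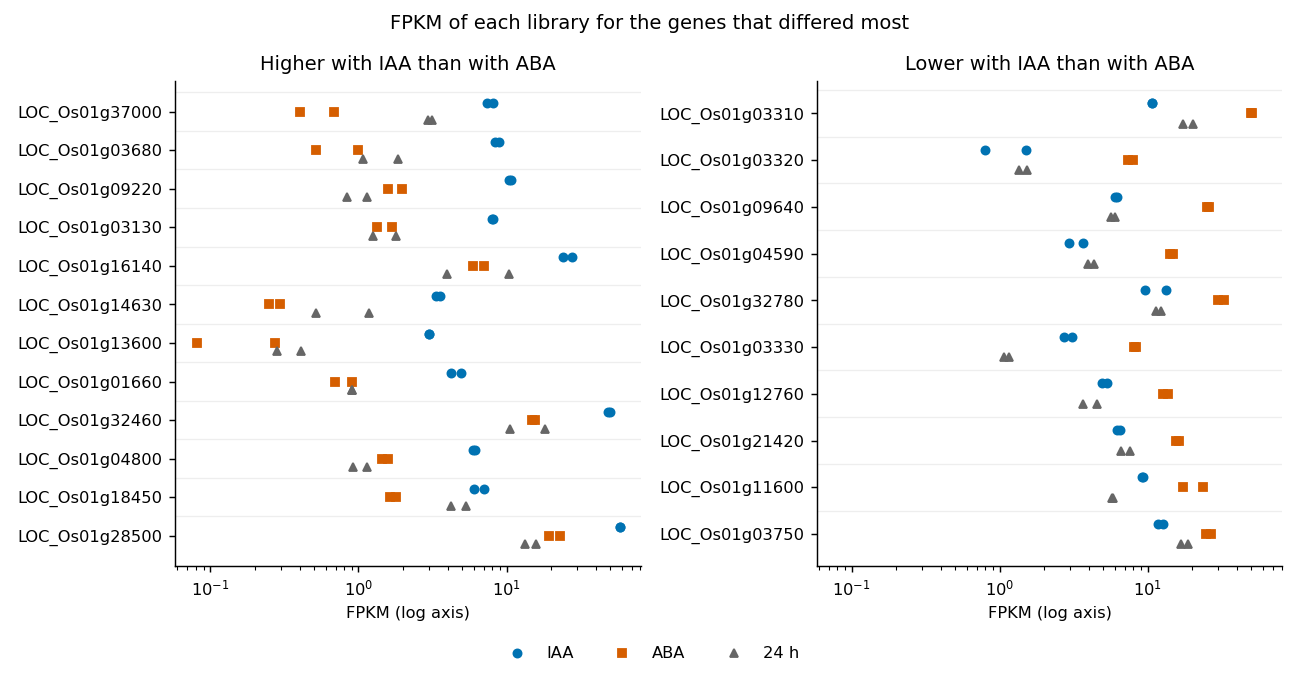
FPKM of each library on a log axis for the 12 genes with the largest rise (left) and the 10 genes lower with IAA (right), with 2 points per group for IAA (circles), ABA (squares) and 24 h without hormone (triangles). In every gene the IAA and ABA points are apart, and for most genes the 24 h points lie beside the hormone group that was not called against 24 h.

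Among the 10 genes lower with IAA, LOC_Os01g03310 (1338229 to 1339139, minus strand) had the largest change. It had 10.7 and 10.6 FPKM with IAA, against 49.5 and 50.3 FPKM with ABA, and 20.2 and 17.2 FPKM at 24 h. The 3 groups did not overlap, with ABA high and IAA low around the 24 h level. The change between IAA and ABA was -2.13 (SE 0.089, adjusted p = 1.55e-08, limma), made of 1.38 with ABA and -0.75 with IAA against 24 h, of which the first was called.

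This gene was followed on the same strand by LOC_Os01g03320 and LOC_Os01g03330, which were also lower with IAA than with ABA. The 3 genes are consecutive in the table and span 8191 bp, from 1338229 to 1346419. LOC_Os01g03320 had 0.790 and 1.51 FPKM with IAA, against 7.92 and 7.41 FPKM with ABA, and 1.53 and 1.35 FPKM at 24 h. LOC_Os01g03330 had 3.09 and 2.72 FPKM with IAA, against 8.11 and 8.32 FPKM with ABA, and 1.16 and 1.07 FPKM at 24 h. The change between the hormones was -2.03 (SE 0.170) and -1.24 (SE 0.123), and the ABA libraries were the highest of the 3 groups in each gene. For LOC_Os01g03330 the IAA libraries also lay above the 24 h libraries, with a change of 0.89 that did not reach 2-fold.

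The genes on either side, looked at after these values were seen, were mixed. LOC_Os01g03340, the next gene, was not called, with a change between IAA and ABA of -0.20 (adjusted p = 1.26e-02, limma). LOC_Os01g03360, further along, changed by 0.43 and was under the 2-fold limit. On the other side, LOC_Os01g03300 and LOC_Os01g03290 had a mean under 1 FPKM and were not tested. LOC_Os01g03300, on the opposite strand, had 0.0454 and 0.0346 FPKM with IAA against 0.806 and 0.511 FPKM with ABA. LOC_Os01g03290 had 0.0714 and 0.359 FPKM with IAA against 2.17 and 2.13 FPKM with ABA. Reads shared between similar neighbouring genes could not be checked from FPKM values.

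LOC_Os01g09640 (4971171 to 4973555, minus strand) had 6.20 and 5.98 FPKM with IAA, against 25.1 and 25.9 FPKM with ABA. At 24 h it had 5.61 and 6.03 FPKM, within the IAA range or just below it. The change was -1.90 between IAA and ABA (SE 0.088, adjusted p = 2.32e-08), 1.96 with ABA against 24 h and 0.06 with IAA against 24 h (adjusted p = 0.621, limma). LOC_Os01g04590 (2059309 to 2062277, plus strand) was alike, with 2.93 and 3.66 FPKM with IAA, 14.2 and 14.8 FPKM with ABA and 4.34 and 3.95 FPKM at 24 h, and a change of -1.86 (SE 0.115).

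LOC_Os01g32780, LOC_Os01g12760 and LOC_Os01g21420 changed by -1.39, -1.22 and -1.20. Their mean with IAA was 11.5, 5.10 and 6.35 FPKM, against 31.4, 13.2 and 15.9 FPKM with ABA. The remaining genes were the least firm of the 10. LOC_Os01g11600 had 9.08 and 9.25 FPKM with IAA, against 23.6 and 17.4 FPKM with ABA, and its change of -1.06 was -0.85 without ABA replicate 1 and no longer reached 2-fold. LOC_Os01g03750 had 12.7 and 11.7 FPKM with IAA, against 24.8 and 26.8 FPKM with ABA, with 18.7 and 16.7 FPKM at 24 h between them. Its change of -1.02 was -0.96 without ABA replicate 2 and also -0.96 without IAA replicate 2.

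The genes were then placed against the 24 h libraries to see which hormone group differed from them. Both of these comparisons use the same 24 h libraries and are therefore given side by side. With IAA, 51 of the tested genes (4.67%) were higher and 1 gene (0.0916%) lower than at 24 h. With ABA, 18 genes (1.65%) were higher and 4 genes (0.366%) lower. These counts are as deposited, where the median change of all tested genes against 24 h was 0.135 with IAA and -0.104 with ABA. After scaling these medians were -0.013 and -0.002, so the balance of higher and lower genes against 24 h also depends on the scaling. The gene lower with IAA was LOC_Os01g37590, and the 4 genes lower with ABA were LOC_Os01g11280, LOC_Os01g18450, LOC_Os01g24710 and LOC_Os01g37000. Of the 53 genes higher with IAA than with ABA, 34 passed the limits against 24 h with IAA alone, 2 with ABA alone (both lower with ABA), 1 with both in opposite directions and 16 with neither. In the 34 genes the median change against 24 h was 1.29 with IAA and 0.04 with ABA, where the ABA changes ran from -0.51 to 0.98. Of the 10 genes lower with IAA than with ABA, 9 passed the limits with ABA alone and 1 with neither. In these 9 genes the median change was -0.05 with IAA, with a range of -0.75 to 0.89, and 1.59 with ABA. The classes were set by these same changes, so their medians follow largely from the limits and are no finding.

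In the 16 higher genes that passed with neither hormone, the change against 24 h ran from 0.29 to 0.98 with IAA and from -0.83 to -0.27 with ABA. The opposite signs follow from the limits that define this class and are no finding. After scaling, 19 of the 34 genes were still called between IAA and ABA and 17 of them kept their class. LOC_Os01g28790, which changed by 0.98 with ABA against 24 h as deposited, was then called with both hormones in the same direction. LOC_Os01g16450 then passed with neither. All 9 genes that passed with ABA alone kept their class. Passing with 1 hormone alone means that the other change was not called, not that it was absent, as LOC_Os01g03310 and LOC_Os01g03330 show. Of the 16 genes that passed with neither hormone, 5 were still called after scaling.

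**Figure D3:**
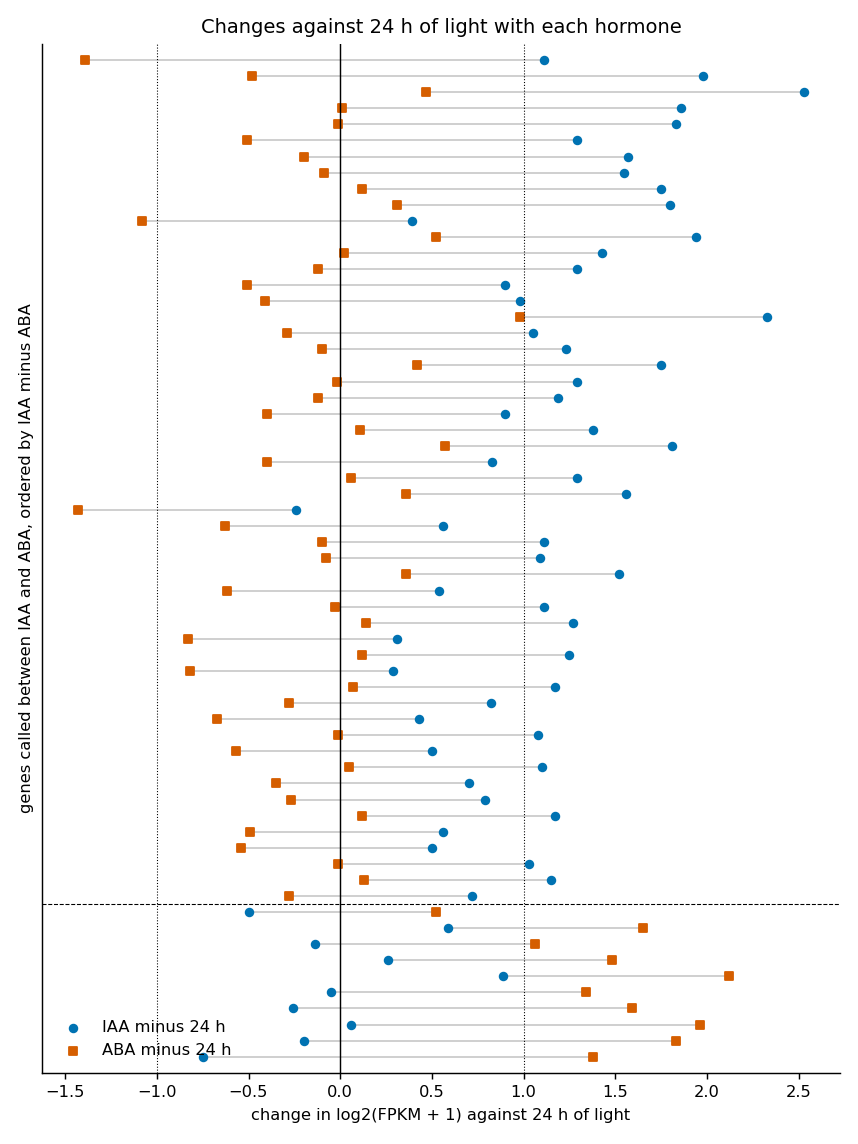
Change in log2(FPKM + 1) against 24 h of light with IAA (circles) and with ABA (squares) for the 63 genes called between the hormones, 1 gene per line, ordered by the change between IAA and ABA; dotted lines mark a 2-fold change and the dashed line divides the 53 higher from the 10 lower genes. Above the dashed line most circles lie past 1 with squares near 0, and below it 9 of 10 squares lie past 1.

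Not every gene called against 24 h with one hormone was also called between the hormones. Of the 51 genes higher with IAA than at 24 h, 35 (68.6%) were also called higher with IAA than with ABA, against 4.85% of all tested genes, and 16 were not. Of the 18 genes higher with ABA than at 24 h, 9 (50.0%) were called lower with IAA than with ABA, against 0.916% of all tested genes. Each pair of comparisons shares the libraries of that hormone, so nothing is read from these shares. LOC_Os01g24710, lower with ABA than at 24 h and singled out after its values were seen, had 102.4 and 131.6 FPKM with IAA, against 57.9 and 60.8 FPKM with ABA, and 150.9 and 157.4 FPKM at 24 h. Its ABA libraries were the low ones, and its change of 0.96 between IAA and ABA was just under the 2-fold limit. A change in the same direction against 24 h was called with both hormones in 3 genes, LOC_Os01g09620, LOC_Os01g12920 and LOC_Os01g15270. An effect of the spray itself cannot be told apart in these genes, since it is not given if the 24 h seedlings were sprayed. LOC_Os01g15270 was the most abundant of them, with 379.2 and 327.9 FPKM with IAA and 492.3 and 506.0 FPKM with ABA, and 154.7 and 146.8 FPKM at 24 h. Both hormone groups lay above 24 h, and the ABA libraries lay above the IAA libraries by less than 2-fold (change between IAA and ABA -0.50, adjusted p = 9.56e-05, limma). LOC_Os01g09620 and LOC_Os01g12920 changed by 0.15 (95% interval 0.01 to 0.29) and 0.14 (95% interval -0.27 to 0.56) between IAA and ABA as deposited, so a 2-fold difference lay outside both intervals. After scaling these changes were -0.14 and -0.13, so their sign depends on the scaling.

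OsbZIP1 (LOC_Os01g07880, 3811149 to 3812069, minus strand), a rice homolog of the Arabidopsis light-signalling factor HY5, was among the 53 higher genes. It had 11.3 and 9.91 FPKM with IAA, against 4.12 and 4.24 FPKM with ABA, and 3.71 and 2.45 FPKM at 24 h. The IAA libraries were high and lay apart from the rest. The change between IAA and ABA was 1.16 (SE 0.133, adjusted p = 1.91e-05, limma), and it was 0.91 after scaling, under the 2-fold limit. GLK2 (LOC_Os01g13740, 7686884 to 7693987, minus strand), a transcription factor that activates chloroplast genes, had 28.0 and 28.3 FPKM with IAA, against 32.5 and 29.3 FPKM with ABA. Its IAA libraries lay below both ABA libraries, but the change of -0.13 was not called (95% interval -0.29 to 0.03, adjusted p = 0.148, limma). After scaling its change was -0.42 (adjusted p = 5.19e-04, limma), still under the 2-fold limit.

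The light course showed the level of the called genes without hormone. The 0 h and 8 h libraries do not enter the change between IAA and ABA, but they do enter the filter on the mean and the error of the fit. Of the 53 genes higher with IAA than with ABA, 19 (35.8%) were called lower at 24 h relative to 0 h, against 8.52% of all tested genes, while 3 were called higher, against 6.96%. After scaling, 9 of the 27 higher genes (33.3%) were lower at 24 h than at 0 h, against 2.93% of all tested genes, and 2 were higher, against 9.52%. The 24 h mean lay below the 0 h mean in 47 of the 53 genes (88.7%), and also in 75.5% of all tested genes. The median over these 53 genes was 9.22 FPKM with IAA and 3.16 FPKM with ABA, and 8.77, 5.99 and 3.42 FPKM at 0, 8 and 24 h. Over all tested genes the medians were 9.47 FPKM with IAA and 8.00 FPKM with ABA, and 10.3, 9.4 and 8.33 FPKM at 0, 8 and 24 h. The 3 genes called higher at 24 h were LOC_Os01g08440, LOC_Os01g11700 and LOC_Os01g14410. The IAA mean lay between the 24 h and 0 h means in 18 of the 53 genes and above both in 34. These genes were picked for a higher level with IAA, and the same counts were not made over all tested genes. Nothing is therefore read from them.

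Single genes differed in their levels over the light course. LOC_Os01g37000 had 33.8 and 29.4 FPKM at 0 h, a mean of 10.2 FPKM at 8 h and 2.96 and 3.12 FPKM at 24 h, so its IAA level was still far below that in the dark. LOC_Os01g09220 had 13.9 and 13.3 FPKM at 0 h, and its IAA libraries lay just below this level. LOC_Os01g03680 was highest at 8 h, with 54.0 and 52.5 FPKM. LOC_Os01g14410, singled out after its values were seen, ran the other way, with 0.403 and 0.330 FPKM at 0 h, 5.02 and 4.52 FPKM at 8 h and 11.3 and 9.06 FPKM at 24 h. It had 29.8 and 28.2 FPKM with IAA, against 10.1 and 10.4 FPKM with ABA, so a gene that had increased in the light was also higher with IAA.

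Of the 10 genes lower with IAA than with ABA, 2 were called lower at 24 h relative to 0 h and 0 higher, against 8.52% and 6.96% of all tested genes. After scaling, 1 of the 17 lower genes was called lower at 24 h and 2 were called higher, against 2.93% and 9.52% of all tested genes. The 2 genes called lower as deposited were LOC_Os01g03310 and LOC_Os01g03330, where the ABA libraries lay above the 0 h level of 47.7 and 39.7 FPKM in LOC_Os01g03310 and of 7.63 and 6.79 FPKM in LOC_Os01g03330. The median over the 10 genes was 6.22 FPKM with IAA and 18.2 FPKM with ABA, and 7.32, 3.63 and 5.79 FPKM at 0, 8 and 24 h. LOC_Os01g21420 dipped at 8 h, with 12.6 and 13.1 FPKM at 0 h, 1.09 and 0.946 FPKM at 8 h and 7.58 and 6.59 FPKM at 24 h, and it had 6.50 and 6.19 FPKM with IAA and 15.5 and 16.2 FPKM with ABA.

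**Figure D4:**
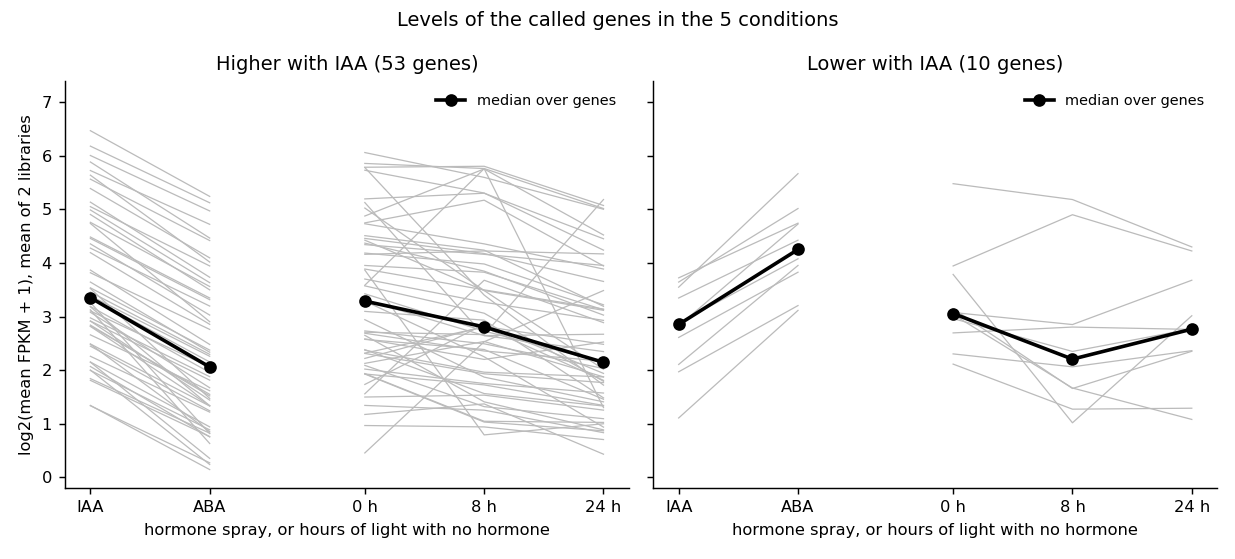
Level of each called gene, as log2 of its mean FPKM + 1 over 2 libraries, with IAA and with ABA and at 0, 8 and 24 h of light without hormone, for the 53 genes higher (left) and the 10 genes lower with IAA (right). Grey lines are genes and the black line is their median, which on the left falls over the light course and is higher with IAA than with ABA.

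The span of the called genes on the chromosome was not a criterion of the calls, although FPKM is corrected for gene length. It varied widely, from 252 to 18545 bp in the 53 higher genes. It had a median of 1648 bp in the 53 higher genes and 2124 bp in the 10 lower genes, against 3591 bp over all tested genes. These are descriptions and were not tested. Besides the 3 neighbours described above, 4 of the 53 higher genes stood next to each other in pairs in the order of all genes. These were LOC_Os01g01650 with LOC_Os01g01660 and LOC_Os01g15310 with LOC_Os01g15320, with 3179 and 2643 bp between the genes of a pair. In the order of tested genes the count was 6. No such count was made for genes in general, so nothing is read from these pairs. In the higher genes, LOC_Os01g24020 overlaps LOC_Os01g24010 and LOC_Os01g05900 overlaps LOC_Os01g05940, and how reads were shared within these pairs was not tested.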

How the data were processed

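The authors trimmed RNA-seq reads with seqtk, mapped them with Hisat2 and calculated FPKM with Cufflinks, with 2 biological replicates in each of 5 groups. They deposited 1 table of FPKM values. The submitters' processing notes also name SAMtools, featureCounts and DESeq2. The methods describe read counting with HTseq-count without strand, a separate step from the FPKM values. The strand setting of Cufflinks is not given in the sources used here. Of 2283 gene rows, 1 incomplete row was left out. In the part used, 491 genes are listed at 0 in every library.

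From these values, log2(FPKM + 1) was fitted for the 1092 genes averaging 1 FPKM or more over all 10 libraries, with limma 3.58.1 in R 4.3.3 (eBayes with a trend). Figures and summaries used Python 3.11.15, pandas 2.3.3 and matplotlib 3.10.9. The fit was tested on simulated data of the IAA and ABA comparison, in which 166 of 200 genes changed 3-fold were recovered (83%) among 1092 genes, with 0 false calls. IAA and ABA were set equal in the unchanged genes, so these false calls do not cover a shift between libraries like the median of 0.214. Changes smaller than 3-fold were not simulated. Fold changes on the log2(FPKM + 1) scale understate changes of low genes.

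The 12 called genes with the largest rise and the 10 with the largest fall, among those with separated libraries, are described, with GLK2 and OsbZIP1, which the paper names. The members and lists were chosen with earlier results of these data known. Gene lists and promoter motifs were not used, since 0 of 2282 IDs matched the reference table. Alternatives were a pseudocount of 0.1, no filter, a filter at a mean of 5 FPKM, scaling by median of ratios, the 4 hormone libraries alone, leaving out each replicate, a replicate block and a limit of 0.05 on adjusted p-values.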

Additional observations from a re-analysis of the deposited data

Results flagged for a closer look

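LOC_Os01g37000 stood out because both hormones moved it past the limits against 24 h in opposite directions, by 1.11 with IAA and -1.39 with ABA. The difference between the hormones was therefore 2.50 (log2 scale, SE 0.109, adjusted p = 1.55e-08, limma), which restates these changes. After median-of-ratios scaling the difference was 2.37, but the IAA change was 0.97 and no longer reached 2-fold, so the opposite calls were lost.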

How the results depend on the processing

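The number of genes higher with IAA than with ABA, 53 as reported, was 80 with a pseudocount of 0.1 and 27 after median-of-ratios scaling. It was 32 under a filter at a mean of 5 FPKM, which leaves fewer genes to test, so counts under that filter are not shares of the same set. The number of lower genes, 10 as reported, was 17 after that scaling and ran from 9 to 10 with each replicate left out. The genes that passed the limits against 24 h with IAA alone, 34 as reported, were 17 after scaling and 40 with a pseudocount of 0.1. Those with ABA alone, 11 as reported, were 15 after scaling and 16 with a pseudocount of 0.1. Under a filter at a mean of 5 FPKM the counts were 23 with IAA alone and 7 with ABA alone. With the replicate number as a block, the counts were 53, 10, 34 and 11, and the replicate numbers did not pair the samples, since deviations of same-numbered libraries correlated by -0.065 to 0.109. Of the 53 higher genes, 40 were called in all 4 fits without 1 of the hormone libraries, as were 8 of the 10 lower genes. Among the 24 genes described by the rule for named genes, no direction changed under any alternative listed in the methods, and 8 of them were not tested under a filter at a mean of 5 FPKM. All but OsbZIP1 and GLK2 were picked for the size of their change in these data, so nothing is read from the kept directions. OsbZIP1 changed by 0.91 after scaling, under the 2-fold limit. The scaled counts of the light course and the count of 37 genes called under both scalings were chosen after seeing the data. Depth is unknown and only 2 libraries per group limit the precision.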

Other observations

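A set of 7 genes, all lower with IAA than with ABA, passed the limits only after median-of-ratios scaling. LOC_Os01g13690 had the highest mean of them with IAA and with ABA, with 238.0 and 231.2 FPKM in the IAA libraries, against 445.5 and 460.8 FPKM in the ABA libraries, and 211.9 and 207.1 FPKM at 24 h. Its ABA libraries were the high ones, and its change between IAA and ABA was -0.95 as deposited and -1.24 after scaling. It also increased in the light, with 62.0 and 58.8 FPKM at 0 h. With no filter on low values, LOC_Os01g03290, which precedes the 3 consecutive genes that were higher with ABA, was called with a change of -1.38 between IAA and ABA (SE 0.172, adjusted p = 1.04e-03, limma), while LOC_Os01g32380 was lost (adjusted p = 2.87e-02 without the filter). LOC_Os01g32380 had 8.51 and 7.74 FPKM with IAA, against 3.36 and 2.4 FPKM with ABA. Between the 3 consecutive genes and LOC_Os01g03290 lies LOC_Os01g03300, on the opposite strand and below the filter.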
